A study of Homo sapiens with 6 samples.

Results

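The genes described here are 10 members of the Notch pathway: the receptor genes NOTCH1, NOTCH2 and NOTCH3, the ligand genes JAG1, JAG2 and DLL1, the gene of the DNA-binding factor RBPJ, and the target genes HES1, HES4 and HEY1. They were taken by symbol from the 27192 genes of the tables, by a rule that uses no measured value but was written with earlier results of these data known, and all 10 were listed. They were followed in U87, an established human glioblastoma cell line. The siLINC00152 group (3 libraries) received a combination of 2 siRNAs against the long noncoding RNA LINC00152, and the siGL2 group (3 libraries) a control siRNA described as nonspecific. In both groups the siRNA was delivered with Lipofectamine RNAiMAX in 2 rounds, 24 hours apart, and cells were taken 24 hours after the second. Both groups are the same cell line, and the siRNAs against LINC00152 were used only together, so their single effects cannot be told apart. Nothing in the labels says that libraries A, B and C of a group came from different cultures. The p-values therefore cover the spread among these libraries alone, and that spread may be technical.

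Notch receptors sit in the cell membrane and are switched on by ligands of the Jagged and Delta-like families on neighbouring cells. Ligand pulling exposes the receptor to a membrane metalloproteinase and then to gamma-secretase, and the freed intracellular domain moves to the nucleus, where it joins RBPJ and a Mastermind protein on DNA. HES and HEY genes, which encode transcriptional repressors, are the best-known targets. In the nervous system the pathway is known for keeping progenitor cells undifferentiated, and it has been studied in glioma cells with stem-like features.

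Total counts were 41963120 to 43713662 in the siLINC00152 libraries and 42139419 to 46234763 in the siGL2 libraries. LINC00152 had 114, 112 and 109 counts in the siLINC00152 libraries, against 650, 608 and 776 in the siGL2 libraries. Within the siGL2 group, library A stood apart: chi-square per degree of freedom over genes was 10.9 and 13.7 against B and C, and 2.91 between B and C. Within the siLINC00152 group, library A was also the farther one, at 5.79 and 5.23 against B and C, with 3.07 between B and C. The 6 markers of a mesenchymal glioma line, led by VIM, summed to 19087 to 19681 CPM in siLINC00152 and 19734 to 20396 CPM in siGL2 libraries (CPM, the usual depth-scaled count, with library sizes adjusted by the trimmed mean of M values, TMM). The members differed in opposite directions: VIM had 6749 to 6937 CPM in siLINC00152 and 8632 to 9171 CPM in siGL2 libraries, and TNC 2458 to 2562 CPM in siLINC00152 and 1192 to 1405 CPM in siGL2 libraries. CD44 and CHI3L1 were lower in every siLINC00152 library than in any siGL2 library, and FN1 overlapped. Their part in the results on Notch genes was not tested. Astrocyte markers were nearly absent, with at most 0.190 CPM in siLINC00152 and 0.317 CPM in siGL2 libraries for the sum of GFAP, S100B, AQP4 and ALDH1L1, and the last 3 never exceeded 3 counts. The 4 neuronal markers, led by SNAP25, summed to 72.6 to 76.5 CPM in siLINC00152 and 93.2 to 97.6 CPM in siGL2 libraries. SNAP25 had 41.5 to 44.8 CPM in siLINC00152 and 62.4 to 64.4 CPM in siGL2 libraries. SYT1 was also lower in every siLINC00152 library than in any siGL2 library. GAD1 overlapped, at 19.6 to 21.2 CPM in siLINC00152 and 18.1 to 20.3 CPM in siGL2 libraries. RBFOX3 was at 3 counts or fewer in every library. Whether the neuronal markers bear on any Notch gene was not tested. Oligodendrocyte, endothelial, epithelial, and blood and microglia markers each summed to at most 1.87 CPM in siLINC00152 and 2.60 CPM in siGL2 libraries.

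Relative to siGL2 cells, siLINC00152 cells held less NOTCH1 RNA and more NOTCH2, JAG1 and HES1 RNA. In such bulk samples, fewer cells that make an RNA and less of it per cell cannot be told apart. Of the 10 genes, 8 had enough counts to be tested. With edgeR's quasi-likelihood test and p-values adjusted over all 14078 tested genes, 4 of the 8 were higher (NOTCH2, JAG1, JAG2 and HES1), 1 was lower (NOTCH1) and 3 did not pass (NOTCH3, HEY1 and RBPJ). Over all tested genes 32.2% were called higher and 32.2% lower, so a call by itself was common in this comparison. Groups without overlap of libraries were also common: this held for 43 of 69 further pathway genes, described below. The share over all genes was not counted. At a change of at least 1.5-fold, 3 of the 8 were higher (JAG1, JAG2 and HES1) and 1 was lower (NOTCH1), where the shares over all tested genes were 9.53% higher and 10.4% lower. The median log2 fold change of the 8 was 0.30, beside 0.00 over all tested genes, and the values ran from −1.14 to 0.97. The call on JAG2 rested on few counts and is given with its limits further on.

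**Figure D1:**
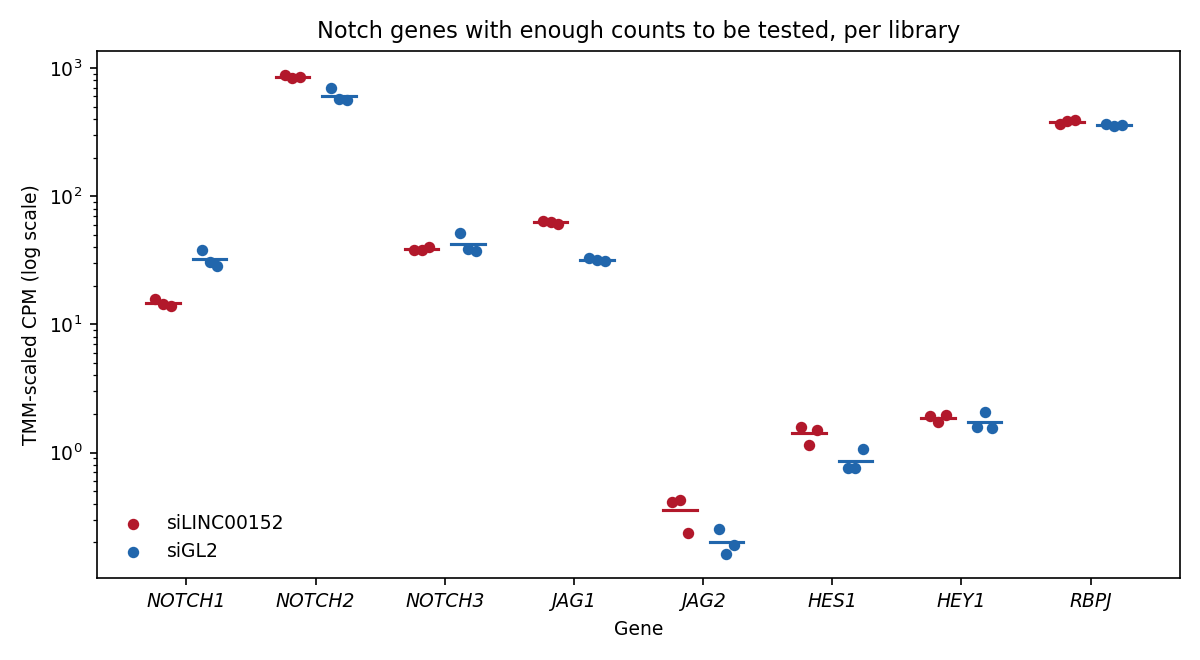
TMM-scaled CPM (log axis) of the 8 tested Notch genes in each library, with siLINC00152 in red and siGL2 in blue. Points are libraries A, B and C from left to right and bars are means of 3. The groups are apart for NOTCH1, NOTCH2, JAG1, HES1 and narrowly RBPJ, and overlap for NOTCH3, JAG2 and HEY1. They are also apart for 43 of 69 further pathway genes, and the share over all genes was not counted.

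**Figure D2:**
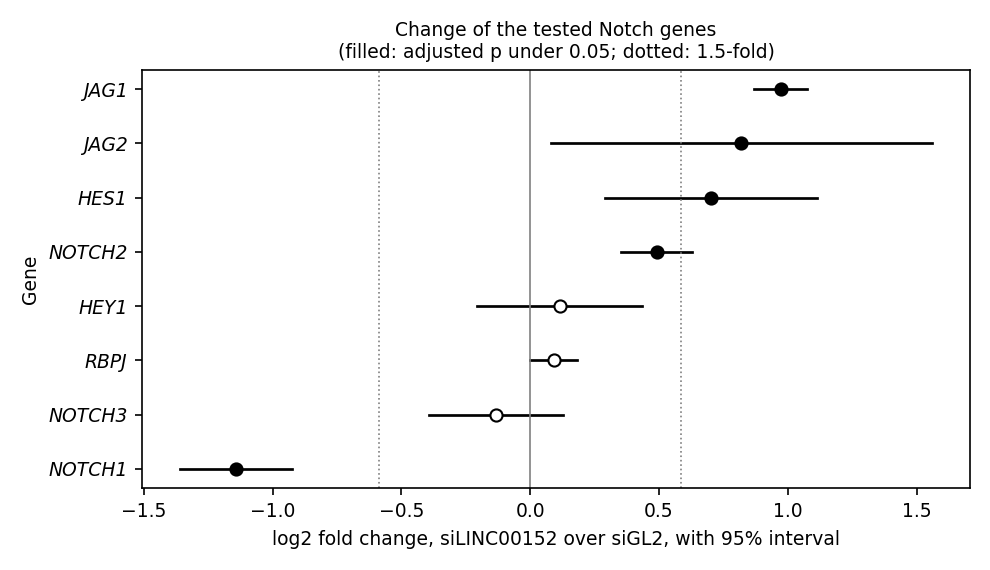
Log2 fold change of siLINC00152 over siGL2 for the 8 tested genes (points) with 95% intervals (lines) from edgeR. Filled points passed at an adjusted p of 0.05, and dotted lines mark 1.5-fold. NOTCH1 lies at −1.14 and JAG1 at 0.97, while the intervals of HEY1 and NOTCH3 include 0.

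The levels of the 10 genes, per length of their exons, spanned a wide range. In siLINC00152 cells NOTCH2 led at 50.9 RPKM (TMM-scaled CPM per kilobase of exon), followed by RBPJ at 41.1, JAG1 at 6.73, NOTCH3 at 4.11, NOTCH1 at 1.41, HES1 at 0.683, HEY1 at 0.579 and JAG2 at 0.0561 RPKM. In siGL2 cells the order was RBPJ at 38.6, NOTCH2 at 36.2, NOTCH3 at 4.51, JAG1 at 3.43, NOTCH1 at 3.12, HEY1 at 0.536, HES1 at 0.417 and JAG2 at 0.0316 RPKM. Neighbours whose libraries overlapped were HES1 and HEY1 in siLINC00152 cells, and RBPJ with NOTCH2, JAG1 with NOTCH1, and HEY1 with HES1 in siGL2 cells. With the longest transcript as length, JAG1 (5.37 RPKM) stood above NOTCH3 (4.89 RPKM) in siGL2 cells, with overlapping libraries, and the order in siLINC00152 cells was as above. Among 17685 genes with a length and a count in siGL2 libraries, RBPJ and NOTCH2 ranked at percentiles 94.0 and 93.4 by RPKM, NOTCH3, JAG1 and NOTCH1 at 60.5, 56.0 and 54.6, HEY1 and HES1 at 36.2 and 34.3, and JAG2 at 17.4.

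NOTCH1, the receptor best known from T-cell leukaemia, fell in siLINC00152 cells. It had 15.8, 14.3 and 13.9 CPM in siLINC00152 libraries A, B and C, against 38.3, 30.4 and 28.5 CPM in siGL2 libraries A, B and C. All 3 siLINC00152 libraries were below all 3 siGL2 libraries, and siGL2 library A was the highest. The means were 14.7 ± 0.989 CPM in siLINC00152 and 32.4 ± 5.17 CPM in siGL2 cells (SD, n = 3 each), a 2.21-fold lower level. The log2 fold change was −1.14 ± 0.10 (SE; edgeR adjusted p = 3.82e-07), and it was −1.01 without siGL2 library A. NOTCH1 (ENSG00000148400.10) spans positions 136494433 to 136545786 of chromosome 9, minus strand (GRCh38), and none of its exonic bases overlap a gene of the other strand.

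NOTCH2, the main receptor RNA of these cells, changed in the other direction. It had 885, 840.4 and 842 CPM in siLINC00152 libraries A, B and C, against 692, 574 and 561 CPM in siGL2 libraries A, B and C. The lowest siLINC00152 library was above the highest siGL2 library, which was again library A. The log2 fold change was 0.49 ± 0.06 (SE; edgeR adjusted p = 6.01e-06), or 1.41-fold, and 0.59 without siGL2 library A. NOTCH2 (ENSG00000134250.19) spans positions 119911553 to 120069626 of chromosome 1, minus strand (GRCh38). Of the 75-base stretches of its transcripts, 20.04% also occur in other genes. NOTCH2NLA, a partial copy known for its part in human cortical growth, leads these, and how reads from the shared stretches were assigned is unknown, which makes the level of NOTCH2 uncertain to that extent. The row named NOTCH2NL had 90, 97 and 93 counts in siLINC00152 libraries, against 118, 132 and 132 in siGL2 libraries. It fell by 0.36 ± 0.12 on the log2 scale (SE; edgeR adjusted p = 0.0149), opposite to NOTCH2, but did not pass with DESeq2 (adjusted p = 0.0830) or without siGL2 library B (edgeR adjusted p = 0.0684). NOTCH2NLA, NOTCH2NLB and NOTCH2NLC, looked up as symbols of their own, were not among the listed genes, but NOTCH2NL is an older symbol of NOTCH2NLA.

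NOTCH3, a receptor known from vascular smooth muscle and its inherited small-vessel disease, did not pass. It had 37.9, 38.1 and 39.8 CPM in siLINC00152 libraries A, B and C, against 51.4, 38.4 and 37.3 CPM in siGL2 libraries A, B and C. siGL2 library A was high and the other 5 libraries lay close together, so the groups overlapped. The log2 fold change was −0.13 with a 95% interval of −0.39 to 0.13 (edgeR adjusted p = 0.336), and it was 0.03 without siGL2 library A (edgeR adjusted p = 0.625). NOTCH3 (ENSG00000074181.8) spans positions 15159038 to 15200981 of chromosome 19, minus strand. NOTCH4, the remaining human receptor, had 4, 1 and 2 counts in siLINC00152 libraries and 7, 2 and 6 in siGL2 libraries, too few for a test. Library A was thus the highest siGL2 library for each of the receptors.

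NOTCH2 made up a larger share of receptor RNA in the siLINC00152 libraries. NOTCH2 made up 90.5%, 90.2% and 90.0% of the summed RPKM of NOTCH1, NOTCH2 and NOTCH3 in siLINC00152 libraries A, B and C, against 81.8%, 82.96% and 83.3% in siGL2 libraries A, B and C. NOTCH1 made up 2.501% ± 0.103 in siLINC00152 and 7.10% ± 0.237 in siGL2 cells, and NOTCH3 7.28% ± 0.334 in siLINC00152 and 10.2% ± 0.553 in siGL2 cells (SD, n = 3 each). The groups did not overlap in any of the 3 shares. The summed level was 56.5 ± 1.55 RPKM in siLINC00152 and 43.9 ± 5.61 RPKM in siGL2 cells (SD, n = 3 each). For each of the 3 shares and for the sum the two-sided exact permutation test gave p = 0.1, the smallest it can give with 3 against 3 libraries (0.14 after Benjamini-Hochberg adjustment over 7 receptor and ligand quantities).

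**Figure D3:**
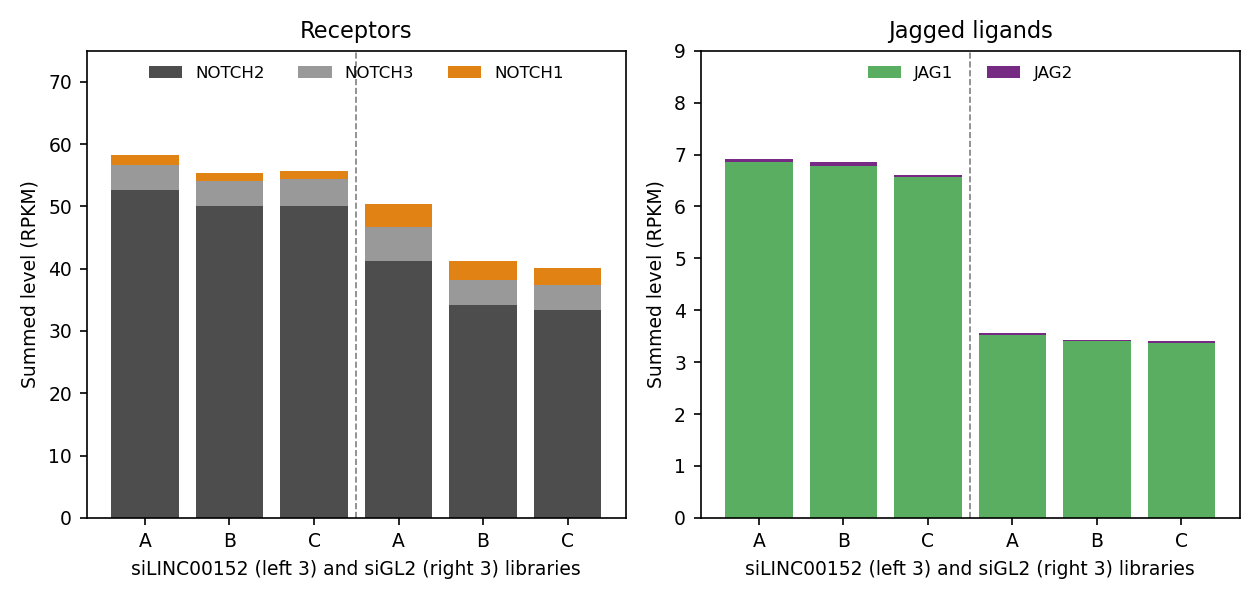
Stacked levels in RPKM of the receptor genes NOTCH2, NOTCH3 and NOTCH1 (left) and the Jagged genes JAG1 and JAG2 (right) in each library, with siLINC00152 libraries left of the dashed line and siGL2 libraries right of it. The NOTCH1 layer is thinner and the JAG1 bar taller in all 3 siLINC00152 libraries. The axes of the panels differ.

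JAG1, the ligand whose loss causes Alagille syndrome in humans, rose clearly. It had 63.7, 63.1 and 61.1 CPM in siLINC00152 libraries A, B and C, against 32.7, 31.7 and 31.3 CPM in siGL2 libraries A, B and C. The groups were far apart and the libraries of each group close together, siGL2 library A included. The means were 62.6 ± 1.35 CPM in siLINC00152 and 31.9 ± 0.720 CPM in siGL2 cells (SD, n = 3 each). The log2 fold change was 0.97 ± 0.05 (SE; edgeR adjusted p = 6.3e-13), or 1.96-fold, the smallest adjusted p of the 8 tested members. JAG1 (ENSG00000101384.12) spans positions 10637684 to 10673999 of chromosome 20, minus strand.

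JAG2, the second Jagged ligand, was barely detected. It had 17, 18 and 10 counts in siLINC00152 libraries A, B and C, against 11, 7 and 9 counts in siGL2 libraries A, B and C. The groups overlapped in CPM, since siLINC00152 library C (0.235 CPM) lay below siGL2 library A (0.254 CPM). The fitted log2 fold change was 0.82 ± 0.36 (SE; edgeR adjusted p = 0.0494). The call was lost in 8 of 11 alternative fits, among them DESeq2 (adjusted p = 0.204) and those without siLINC00152 library A or B or siGL2 library B or C (edgeR adjusted p = 0.111 to 0.174). The gene met the count filter in 2 siLINC00152 libraries and 1 siGL2 library, the fewest that let it be tested. Of its 75-base stretches, 6.12% also occur in another gene. JAG2 (ENSG00000184916.8) spans positions 105140981 to 105168824 of chromosome 14, minus strand.

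Delta-like ligands were at or near the limit of detection. DLL1, a ligand of the developing nervous system (ENSG00000198719.8, minus strand of chromosome 6, 170282206 to 170306565), had 0 counts in all 6 libraries, which allows up to 3 counts, or 0.0686 to 0.0715 CPM in siLINC00152 and 0.0649 to 0.0712 CPM in siGL2 libraries, for counting error only. DLL4, DLK1 and DLK2 were likewise at 0 in all 6, and DLL3 had at most 1 count in a siLINC00152 library and at most 2 in a siGL2 library. JAG1 thus held 99.2% ± 0.233 of the summed RPKM of JAG1, JAG2 and DLL1 in siLINC00152 cells and 99.1% ± 0.190 in siGL2 cells (SD, n = 3 each; two-sided exact permutation p = 0.7). That sum was 6.79 ± 0.161 RPKM in siLINC00152 and 3.47 ± 0.0837 RPKM in siGL2 cells, with no overlap of libraries (SD, n = 3 each; two-sided exact permutation p = 0.1).

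A further RNA of this class was more abundant than JAG1. DNER encodes a neuronal membrane protein with EGF repeats that has been described as an unconventional Notch ligand. It had 220.5, 217 and 219.6 CPM in siLINC00152 libraries, against 345, 344 and 359.5 CPM in siGL2 libraries. It fell by 0.68 ± 0.04 on the log2 scale (SE; edgeR adjusted p = 1.83e-11), opposite to JAG1, and the libraries of the groups were well apart. Per length it stood at 55.6 RPKM in siLINC00152 and 88.8 RPKM in siGL2 cells.

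RBPJ, the DNA-binding partner of the cleaved receptors, stayed near its siGL2 level. It had 366, 387 and 389.9 CPM in siLINC00152 libraries A, B and C, against 365.4, 351 and 356 CPM in siGL2 libraries A, B and C. The lowest siLINC00152 library and the highest siGL2 library, both A, differed by less than 1 CPM. The log2 fold change was 0.09 ± 0.04 (SE) with a 95% interval of 0.00 to 0.18 and did not pass (edgeR adjusted p = 0.0712). It passed without siLINC00152 library A (log2 fold change 0.12, edgeR adjusted p = 0.0281) and without siGL2 library A (0.11, edgeR adjusted p = 0.0143). RBPJ (ENSG00000168214.20) spans positions 26163455 to 26435131 of chromosome 4, plus strand, and its many pseudogenes share 0.131% of its 75-base stretches.

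HES1, the classical Notch target and a repressor that also acts on its own promoter, rose at a low level. It had 65, 48 and 64 counts in siLINC00152 libraries A, B and C, against 33, 33 and 50 counts in siGL2 libraries A, B and C. In CPM the groups did not overlap, but the lowest siLINC00152 library (B, 1.14 CPM) was close to the highest siGL2 library (C, 1.06 CPM). The means were 1.41 ± 0.235 CPM in siLINC00152 and 0.861 ± 0.170 CPM in siGL2 cells (SD, n = 3 each). The log2 fold change was 0.70 ± 0.20 (SE; edgeR adjusted p = 0.00402), or 1.63-fold with a 95% interval of 0.29 to 1.11 on the log2 scale. HES1 (ENSG00000114315.3) spans positions 194136145 to 194138732 of chromosome 3, plus strand.

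HES4, a relative of HES1 with no counterpart in mice, was at the edge of detection. It had 0, 0 and 1 counts in siLINC00152 libraries and 0 counts in each siGL2 library, and was not tested. HES4 (ENSG00000188290.10) spans positions 998962 to 1000172 of chromosome 1, minus strand.

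HES1 and HES4 share a sequence arrangement upstream of their RefSeq starts, which is shown because it is the kind of site RBPJ binds. DLL1 and HEY1 were not searched for such sites, which does not show that RefSeq lacks promoter windows for them. For the other 8 of the 10 members, promoter windows from RefSeq (GRCh38.p14, 250 bases before to 50 after a start) were used. Each was searched on both strands for GTGGGAA, the core of the RBPJ site, and for GTGTGAA, a variant of it. The words did not overlap each other in any member's window. Of 35116 windows, 6.25% hold GTGGGAA and 2.999% hold GTGTGAA on either strand. The windows of HES1 and HES4 and 1 of the 5 windows of RBPJ hold at least 1 of these words, and those of NOTCH1, NOTCH2, NOTCH3, JAG1 and JAG2 hold neither. The stretches below read 5′ to 3′ along the gene, lie before the RefSeq start of their window, and have the words in capitals. These starts differ from the ends of the GENCODE spans given above: the HES4 stretch lies partly, and the RBPJ stretch wholly, inside the GENCODE span of its gene. A word that runs on the other strand appears as its reverse complement, TTCCCAC or TTCACAC. HES1 is from chr3:194136048-194136107 on the plus strand, HES4 from chr1:1000130-1000189 on the minus strand, and RBPJ from chr4:26319616-26319694 on the plus strand.
HES1: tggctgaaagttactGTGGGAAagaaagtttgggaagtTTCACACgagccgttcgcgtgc
HES4: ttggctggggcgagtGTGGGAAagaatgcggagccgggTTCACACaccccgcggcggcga
RBPJ: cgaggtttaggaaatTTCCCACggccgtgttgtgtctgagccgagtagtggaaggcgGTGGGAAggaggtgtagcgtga

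Counted from the RefSeq start, the pair begins at −85 in HES1 and at −77 in HES4. In both, GTGGGAA is followed by TTCACAC with the words facing each other over a span of 30 bases. A search of all 35116 windows for this pair at this span, in either reading direction, found 2 windows, those of HES1 and HES4. The span was taken from these 2 promoters, so the count describes how rare the arrangement is and tests nothing. In RBPJ both words are GTGGGAA, the first on the opposite strand at −115 and the second on the gene's strand at −73. Such words say nothing of whether RBPJ was bound in these cells.

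HEY1 (ENSG00000164683.16), a target known from heart and vessel development, did not pass. It had 79, 73 and 83 counts in siLINC00152 libraries A, B and C, against 69, 89 and 73 counts in siGL2 libraries A, B and C. The groups overlapped, at 1.87 ± 0.116 CPM in siLINC00152 and 1.73 ± 0.286 CPM in siGL2 cells (SD, n = 3 each). The log2 fold change was 0.11 with a 95% interval of −0.21 to 0.43 (edgeR adjusted p = 0.533). The fitted value of HES1, 0.70, lies outside this interval, but the interval of HES1, 0.29 to 1.11, overlaps it. The difference between the genes was not tested. Of the other HES and HEY genes and targets on the pathway list, HEYL, HES5, NRARP (a feedback inhibitor) and DTX1 had 0 counts in all 6 libraries. HEY2 had 0.574 CPM in siLINC00152 and 0.725 CPM in siGL2 cells and did not pass (edgeR adjusted p = 0.282), and HES7 had between 1 and 10 counts in any library. HES2, a relative of HES1, had 10, 12 and 10 counts in siLINC00152 libraries, against 5, 3 and 7 in siGL2 libraries. It reached the count cut in 2 siLINC00152 libraries and 0 siGL2 libraries, too few for a test. With no filter its log2 fold change was 1.17 ± 0.49 (SE; edgeR adjusted p = 0.0379), which rests on few counts. That fit gave edgeR adjusted p = 0.302 for NOTCH4, 0.477 for HES4, 0.580 for HES7 and 0.831 for DLL3. HES6, which in mouse counteracts HES1 and is not a typical Notch target, fell to 6.49 ± 0.311 CPM in siLINC00152, against 10.98 ± 0.654 CPM in siGL2 cells (SD, n = 3 each; log2 fold change −0.76, edgeR adjusted p = 4.3e-08).

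The rest of the pathway was described with a list of 72 symbols in 9 classes, of which 69 were listed and 57 tested. Of the 57, 25 were higher, 15 lower and 17 did not pass. Their median log2 fold change was 0.05, and 32.2% higher and 32.2% lower was the background of all tested genes. At 1.5-fold or more, 7 were higher and 7 lower, where the shares over all tested genes were 9.53% higher and 10.4% lower. Both counts of lower genes include TLE2, which met the count filter only in siGL2 libraries and is described at the end. The receptor, ligand and target genes of the list are those described above.

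Genes that cleave the receptors stood mostly higher in siLINC00152 cells. Of 9 tested, 7 were higher, 1 was lower and 1 did not pass, and the median log2 fold change was 0.49. Over all tested genes 32.2% were higher and 32.2% lower. At 1.5-fold or more, 3 of the 9 were higher and 0 lower, beside 9.53% higher and 10.4% lower over all tested genes. ADAM17, a metalloproteinase that sheds membrane proteins, had 125.0, 125.5 and 134 CPM in siLINC00152 libraries, against 54.8, 51.3 and 54.1 CPM in siGL2 libraries. Its log2 fold change was 1.26 ± 0.05 (SE; edgeR adjusted p = 1.06e-14), and 13.6% of its exonic bases overlap genes of the other strand. FURIN, the convertase that cuts the receptor in the secretory pathway, rose by 0.91 ± 0.05 on the log2 scale (edgeR adjusted p = 9.93e-13), and APH1B, a gamma-secretase subunit, by 0.91 ± 0.05 (edgeR adjusted p = 1.17e-12). APH1A, its alternative subunit, stood at 0.02 ± 0.05 (edgeR adjusted p = 0.766), and −0.05 with library size alone as the scale. The following were named after their values were seen. ADAM10, the main metalloproteinase of ligand-driven Notch cleavage, rose by 0.49 ± 0.04, and the gamma-secretase genes NCSTN and PSEN2 by 0.48 and 0.31. PSENEN, the smallest subunit, was the single gene of the class that fell (−0.30 ± 0.05), and 41.0% of its exonic bases overlap genes of the other strand. Whether counting used the strand is not stated, so reads of such overlaps cannot be told apart.

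**Figure D4:**
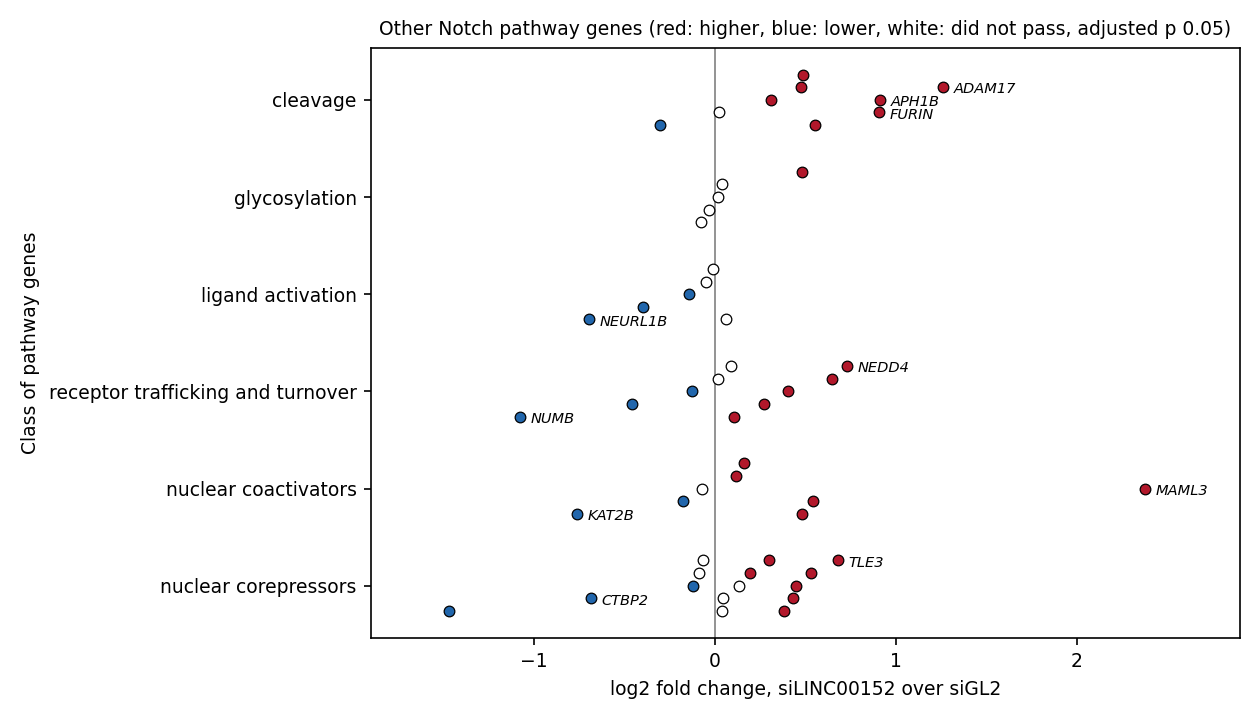
Log2 fold change of siLINC00152 over siGL2 for tested genes of 6 classes of the pathway list. Each point is a gene, red where higher, blue where lower and white where it did not pass at an adjusted p of 0.05, and points are set apart vertically for sight alone. In the cleavage class 7 of 9 points are red, MAML3 stands at 2.38, and NUMB at −1.08. Over all tested genes 32.2% were higher and 32.2% lower.

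Among genes that glycosylate the receptors, LFNG alone passed, and among genes that activate the ligands NEURL1B, EPN2 and MIB1 passed. Of 5 glycosylation genes, 1 was higher and 4 did not pass (all tested genes: 32.2% higher and 32.2% lower). LFNG, a Fringe enzyme that alters which ligands a receptor answers to, rose by 0.48 ± 0.09 on the log2 scale (SE; edgeR adjusted p = 1.56e-04). POGLUT1, RFNG and POFUT1 lay between −0.03 and 0.04 and did not pass, and 21.6% of exonic bases of RFNG overlap genes of the other strand. Of 6 tested genes of ligand activation, 0 were higher, 3 were lower and 3 did not pass, beside the same all-gene shares. NEURL1B, a ubiquitin ligase of ligands, fell by 0.70 ± 0.06 (edgeR adjusted p = 7.02e-10), and the endocytic adaptor gene EPN2 by 0.40 ± 0.04 (edgeR adjusted p = 1.07e-07), with 19.5% of its exonic bases overlapping a gene of the other strand. MIB1, the main ubiquitin ligase of Notch ligands, fell by 0.14 ± 0.05 (edgeR adjusted p = 0.0259), and did not pass without siLINC00152 library A or C or siGL2 library A, where the value was −0.08. MIB2 stood at −0.01 ± 0.07.

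Among 10 genes of receptor trafficking and turnover, 5 were higher, 3 lower and 2 did not pass. The shares over all tested genes were 32.2% higher and 32.2% lower. NUMB, an endocytic adaptor that antagonises Notch during asymmetric division, had 96.2, 99.7 and 103 CPM in siLINC00152 libraries, against 215, 207 and 209 CPM in siGL2 libraries. The libraries of the groups were far apart, and NUMB fell by 1.08 ± 0.05 on the log2 scale (SE; edgeR adjusted p = 3.78e-14). NEDD4, a ubiquitin ligase, rose by 0.73 ± 0.05 (edgeR adjusted p = 5.43e-11), and FBXW7, the ligase adaptor that marks the intracellular domain for degradation, by 0.40 ± 0.06 (edgeR adjusted p = 3.38e-06). DTX4 had 0.263 CPM in siLINC00152 and 0.246 CPM in siGL2 cells and did not pass.

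In the nucleus, both coactivators and corepressors moved in each direction. Of 8 coactivator genes, 5 were higher, 2 lower and 1 did not pass (all tested genes: 32.2% higher and 32.2% lower). MAML3, a Mastermind gene, had 10.1, 11.1 and 11.4 CPM in siLINC00152 libraries, against 2.40, 1.92 and 1.97 CPM in siGL2 libraries, a 5.19-fold higher level (log2 fold change 2.38 ± 0.10, SE; edgeR adjusted p = 5.43e-14). MAML2 did not pass (−0.07 ± 0.07). Per length MAML3 stood at 1.55 RPKM in siLINC00152 and 0.299 RPKM in siGL2 cells, beside 3.06 and 3.22 RPKM of MAML2 in siLINC00152 and siGL2 cells. MAML1, named after its values were seen, was above both, at 8.59 RPKM in siLINC00152 and 7.70 RPKM in siGL2 cells. The histone acetyltransferase gene KAT2B fell by 0.76 ± 0.05 (edgeR adjusted p = 7.5e-11), and CREBBP rose by 0.48 ± 0.05 (edgeR adjusted p = 1.16e-07). Of 15 corepressor genes, 7 were higher, 3 lower and 5 did not pass. Over all tested genes 32.2% were higher and 32.2% lower. TLE2, described at the end, is among the lower ones but met the count filter only in siGL2 libraries. Its call is therefore no support for a fall. The Groucho-family genes TLE3 and TLE1, whose proteins bind HES repressors, rose by 0.68 ± 0.05 (edgeR adjusted p = 4.68e-10) and 0.45 ± 0.05 (edgeR adjusted p = 1.14e-07). CTBP2 fell by 0.69 ± 0.05 (edgeR adjusted p = 3.63e-10) and CTBP1 stood at 0.04 ± 0.05, with 34.7% and 13.3% of their exonic bases overlapping genes of the other strand.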

How the data were processed

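RNA of 6 U87 libraries was measured. PolyA RNA, extracted with TRIzol and cleaned on columns, went into strand-marking libraries read from both ends (75 bases), per the labels' protocols. The deposited tables, 1 a library, hold counts per gene symbol with no normalization. Per the submitters' processing notes, bcl2fastq, HISAT, HTSeq, DESeq and hg38 were used; the notes carry no versions. Annotation, strand setting and handling of multiply matching reads: not given in the sources used here.

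Starting from the deposited counts, low genes were removed with filterByExpr (at least 10 counts, 15 in total). TMM factors were 0.975 to 0.979 in siLINC00152 and 1.02 to 1.03 in siGL2 libraries. Groups were compared with edgeR 4.0.16 (robust quasi-likelihood test, no covariate, two-sided, Benjamini-Hochberg over all tested genes) in R 4.3.3, and SE is the log2 fold change over the square root of F. Further software was DESeq2 1.42.0, limma 3.58.1, scipy 1.17.1 and pandas 2.3.3 under Python 3.11.15. The fit was tested on simulated data. Coordinates, exon lengths and overlaps come from GENCODE release 29 on GRCh38, which hg38 names; 24211 of 27192 symbols matched, 82 of them through another symbol. No pair of replicates agreed within sampling noise (chi-square per degree of freedom 2.91 to 13.7).

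Members, lists and tests were chosen with earlier results of these data known. Named are all members, every further receptor, ligand and target of the list, and in other classes the 3 tested genes with the smallest p and the 1 with the largest; exceptions are marked, and some genes of the lists are not reported by name here. Alternatives were 11 other fits, another gene length, and NOTCH2NL counts added to NOTCH2.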

Additional observations from a re-analysis of the deposited data

How the results depend on the processing

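Over 11 other fits (library size alone, RLE factors, DESeq2, no filter, the replicate block, and each library left out), the calls and directions of NOTCH1, NOTCH2, JAG1 and HES1 were kept in all 11, and HEY1 did not pass in any. Without 1 library, 3 to 5 members were higher, 1 was lower, and 4155 to 4666 of all tested genes were higher and 4133 to 4670 lower. With library size alone, all-gene calls were 3755 higher and 5389 lower, and the median log2 fold change was −0.07. JAG2 passed in 3 of the 11. The letters A, B and C pair nothing in the labels, and deviations of same-letter libraries correlated at 0.0818, −0.0129 and 0.0698; with the letter as replicate block, 4571 genes were higher and 4584 lower, and JAG2 did not pass (edgeR adjusted p = 0.0561). Directions turned only for named genes that did not pass. With library size alone these were APH1A (−0.047), RFNG (−0.031), POFUT1 (−0.048) and CTBP1 (−0.031). Leaving out each library in turn gave log2 fold changes of −0.22 to 0.030 for NOTCH3 (above 0 without siGL2 library A), −0.040 to 0.057 for APH1A, −0.029 to 0.079 for RFNG, −0.0023 to 0.056 for POFUT1, −0.077 to 0.048 for MIB2, −0.073 to 0.25 for DTX4 and −0.0092 to 0.077 for CTBP1. The cause was not tested. With the longest transcript as length, the share of NOTCH2 differed by 6.05 percentage points, against 7.54, that of NOTCH1 by −3.67, against −4.60, and that of NOTCH3 by −2.37, against −2.94. Adding NOTCH2NL counts to NOTCH2 gave 7.50 points. Few counts limit JAG2, HES1 and HEY1.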

Other observations

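TLE2, a Groucho-family corepressor gene singled out after its values were seen, had 2, 5 and 6 counts in siLINC00152 libraries, against 13, 11 and 15 in siGL2 libraries. The groups did not overlap, and its log2 fold change was −1.47 ± 0.42 (SE; edgeR adjusted p = 0.00481). TLE2 met the count filter in 3 siGL2 libraries and 0 siLINC00152 libraries. It was therefore tested only through the group where it was higher, and its p-value is no support for the fall. It did not pass with DESeq2 (adjusted p = 0.0511).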
